A study of Mus musculus with 48 samples.

Results

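The genes described here carry glucose into the cell and through its main routes: glucose transport, glycolysis and lactate, the pentose phosphate pathway and glycogen. They were 38 listed gene symbols, of 55471 genes counted in mouse RNA-seq libraries, and were taken by symbol from the gene counts of every library. All 38 were found, and all passed the filter on low counts in every comparison. Aldoa alone carried a second gene ID, which stayed at or below 1.14 CPM and was left out. The 48 libraries came from white adipose tissue that the labels call eWAT, an abbreviation usually read as epididymal white adipose tissue, and from cells of that tissue labelled as macrophages positive for F4/80, CD11b and CD64. In eWAT, 8 libraries were labelled adipose-specific Txnip knockout (KO) and 8 wild type (WT) on a ketogenic diet, and 7 were labelled KO and 7 WT on a control diet. In the macrophage-labelled set, the ketogenic diet had 3 KO-labelled and 3 WT-labelled libraries, and the control diet had 6 of each. Txnip, the targeted gene, encodes a protein of the arrestin family that limits glucose uptake. The promoter or Cre driver behind the knockout, the make-up of the diets and the age and sex of the animals are not given in the sources used here. Whether each library came from its own animal is not stated, so p-values measure only the spread between libraries.

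Glucose enters fat cells mainly through the insulin-responsive transporter GLUT4 and is trapped as glucose 6-phosphate by hexokinase. From there it runs down glycolysis to pyruvate and lactate, passes through the pentose phosphate pathway, which makes the NADPH that fatty acid synthesis consumes, or is stored as glycogen. In white fat much of this carbon ends in the glycerol and fatty acids of stored triglyceride. A ketogenic diet is very low in carbohydrate.

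Levels are given as CPM, the count of a gene scaled to a common library size, after TMM scaling, and 3 values joined together are the lowest, the median and the highest library of a group unless said otherwise. A gene was called at an adjusted p under 0.05 (edgeR's quasi-likelihood test, Benjamini-Hochberg over all genes tested), and fold changes are log2 ± SE, ketogenic over control or KO over WT. Libraries held 17.42 to 59.85 M gene counts. Several checks touch all results. Txnip itself went against the genotype label in eWAT: it had 2127 to 2996 CPM in KO-labelled and 1455 to 1919 CPM in WT-labelled control-diet libraries, and 2052 to 2741 CPM against 1394 to 2266 CPM on the ketogenic diet (log2 fold change 0.69 and 0.35, adjusted p = 0.000852 and 0.0441), so the groups are named by their labels throughout. Which part of the gene was deleted is not stated in the labels. The predicted gene Gm11868 had 3.48 to 4.86 CPM in KO-labelled and 0.712 to 1.17 CPM in WT-labelled control eWAT and separated the labels in all eWAT and all control macrophage-labelled libraries. In the ketogenic macrophage-labelled set it went against the label in 4 of 6 libraries (KO replicates 2 and 3, WT replicates 1 and 2). The macrophage-labelled libraries also went against their cell label. Fcgr1, which encodes CD64, had 1.04 to 2.19 CPM in WT-labelled control libraries, against 3.45 to 15.1 CPM in the matching whole-eWAT libraries, while the endothelial gene Pecam1 had 1484 to 1999 CPM, against 214 to 244 CPM in eWAT. Each diet was sequenced as its own library set in eWAT and again in the macrophage-labelled cells, so an effect of diet and one of the library set cannot be told apart. Fold changes followed the GC content of the transcripts in the eWAT diet comparison of WT-labelled libraries (Spearman rho across genes -0.56) and in the control-diet genotype comparison of eWAT (-0.59). The eWAT interaction followed it too (0.52), and less so the genotype comparison of macrophage-labelled control libraries (-0.37). Calls that an offset for GC content ended are therefore named. Reads that map to more than 1 place are not in these gene counts, and some members have near-identical pseudogene copies, so the levels of Gapdh, Eno1, Pgk1, Pgam1, Aldoa, Tpi1 and Ldha are uncertain. In bulk tissue fewer cells of a type and less RNA per cell cannot be told apart.

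The promoters shown are those of Tkt, with the largest diet difference in eWAT, G6pdx, the only member called in the eWAT interaction, and Ppp1r3c and Pfkfb3, with the largest fall and rise in the macrophage-labelled set. The 250 bases before their RefSeq starts (GRCm38.p6) are shown so that their sequence can be read beside their values. Of the 38 members 35 had a start in this table, and Slc2a4, Slc2a3 and Trarg1 did not. Capitals mark CACGTG, the E-box that carbohydrate-responsive and other basic helix-loop-helix factors bind, and TGACNNNGC, the core of the antioxidant response element, each searched on both strands with no overlap between them. Tkt lies on the plus strand at chr14:30548881-30549130, G6pdx on the minus strand at chrX:74428881-74429130, Ppp1r3c on the minus strand at chr19:36736605-36736854, and the second of 2 Pfkfb3 starts on the minus strand at chr2:11502091-11502340. In the annotation used for gene lengths, Tkt begins further upstream, at 30548359, as do G6pdx, at 74429194, and Pfkfb3, at 11554077. The windows shown for these genes therefore lie inside the annotated genes.
Tkt: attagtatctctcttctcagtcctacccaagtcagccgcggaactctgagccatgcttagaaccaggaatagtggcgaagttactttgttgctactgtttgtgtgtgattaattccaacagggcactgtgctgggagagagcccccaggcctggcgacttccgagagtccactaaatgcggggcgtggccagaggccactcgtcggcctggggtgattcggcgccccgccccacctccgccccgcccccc
G6pdx: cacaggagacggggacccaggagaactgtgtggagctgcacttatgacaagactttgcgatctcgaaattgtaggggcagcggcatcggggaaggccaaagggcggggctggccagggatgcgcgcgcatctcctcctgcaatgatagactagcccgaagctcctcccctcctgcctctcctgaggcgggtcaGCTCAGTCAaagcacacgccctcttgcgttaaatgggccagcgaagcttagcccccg
Ppp1r3c: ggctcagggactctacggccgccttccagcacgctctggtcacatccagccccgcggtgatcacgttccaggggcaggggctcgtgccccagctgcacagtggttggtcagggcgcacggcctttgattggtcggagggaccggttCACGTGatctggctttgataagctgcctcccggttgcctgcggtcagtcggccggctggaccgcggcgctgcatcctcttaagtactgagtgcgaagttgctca
Pfkfb3: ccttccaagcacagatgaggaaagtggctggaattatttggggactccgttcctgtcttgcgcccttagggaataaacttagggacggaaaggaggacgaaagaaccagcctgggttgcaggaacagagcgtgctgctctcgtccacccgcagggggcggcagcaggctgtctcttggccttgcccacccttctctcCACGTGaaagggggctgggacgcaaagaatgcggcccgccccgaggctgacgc
CACGTG was in 6.02% of the 32851 promoters of this table. Among the members it was in at least 1 promoter of Ldha, Pfkfb2, Pfkfb3, Pfkm and Ppp1r3c. TGACNNNGC was in 10.2% of all promoters and in at least 1 promoter of Aldoa, G6pdx and Hk1. The 35 members had 54 promoters, so these member counts cannot be set against the shares of promoters. Neither stretch was in the Tkt window or in the first Pfkfb3 window.

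In whole eWAT of WT-labelled mice on the control diet, Aldoa, the main aldolase, had the highest level per length (331 ± 28.5 CPM per kilobase, mean ± SD, n = 7). Ldha, the lactate dehydrogenase subunit that favours lactate, followed at 206 ± 28.1 CPM per kilobase, apart from it by more than the SDs. Pfkfb3, which makes the glycolytic activator fructose 2,6-bisphosphate, came next at 176 ± 41.6 CPM per kilobase, then Trarg1, a membrane partner of GLUT4, at 148 ± 32.1, and Ldha, Pfkfb3 and Trarg1 each lay within the SDs of the next in this order. Aldoc, the aldolase best known from brain, was lowest at 0.365 ± 0.105 CPM per kilobase.

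In WT-labelled control libraries, the leading isozyme per length differed between macrophage-labelled cells and eWAT for the hexokinases and the phosphofructokinases. It was the same for the transporters, the PFKFB enzymes, the aldolases, the lactate dehydrogenases, the glycogen phosphorylases and the glycogen synthases. Of the summed CPM per kilobase of Hk1, Hk2 and Hk3, Hk2, the insulin-regulated hexokinase, made 1.58% ± 0.494 (SD, n = 6) in macrophage-labelled WT control libraries and 77.3% ± 3.37 (SD, n = 7) in eWAT, while the constitutive Hk1 made 93.1% ± 2.02 and 16.2% ± 2.35. Among the transporters, Slc2a4, which encodes GLUT4, made 49.9% ± 5.595 in macrophage-labelled libraries, against 90.5% ± 1.82 in eWAT. Among phosphofructokinases, Pfkp led at 39.97% ± 1.67 in macrophage-labelled libraries, with Pfkl within the SDs at 36.5% ± 2.72. In eWAT Pfkl led at 45.2% ± 1.93. Length was that of the merged exons of all transcripts, 13401 bases for Pfkp and 6675 for Pfkl. In CPM not divided by length Pfkp led in eWAT too, at 94.9 against 86.4 CPM for Pfkl, so the Pfkl lead depends on that length. In KO-labelled control eWAT, Pfkm (36.3% ± 4.81) and Pfkl (34.8% ± 6.07) lay within the SDs. Slc2a1, the basal transporter GLUT1, made 42.9% ± 6.45 in macrophage-labelled libraries, within the SDs of Slc2a4, and 4.64% ± 0.839 in eWAT. In WT-labelled ketogenic macrophage-labelled libraries Slc2a1 made 45.2% ± 1.92 and Slc2a4 43.3% ± 1.54. On the control diet Pfkfb3 led its family in WT-labelled macrophage-labelled and eWAT libraries, with 80.8% ± 3.32 and 90.2% ± 2.09. There Ldha outweighed Ldhb in both, with 87.8% ± 2.11 and 86.3% ± 0.884. The macrophage-labelled and eWAT libraries were made with different kits and normalised apart, so these shares were not tested against each other. Slc2a4 stood at 21.9% and Trarg1 at 6.91% of the eWAT CPM in the macrophage-labelled libraries, and the 11 adipocyte markers ranged widely on the same scale, with Plin4 lowest at 0.395%, Adipoq at 0.737%, Lipe at 6.02%, Pnpla2 at 17.7%, Fabp4 at 84.2% and Pparg highest at 131%.

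**Figure D1:**
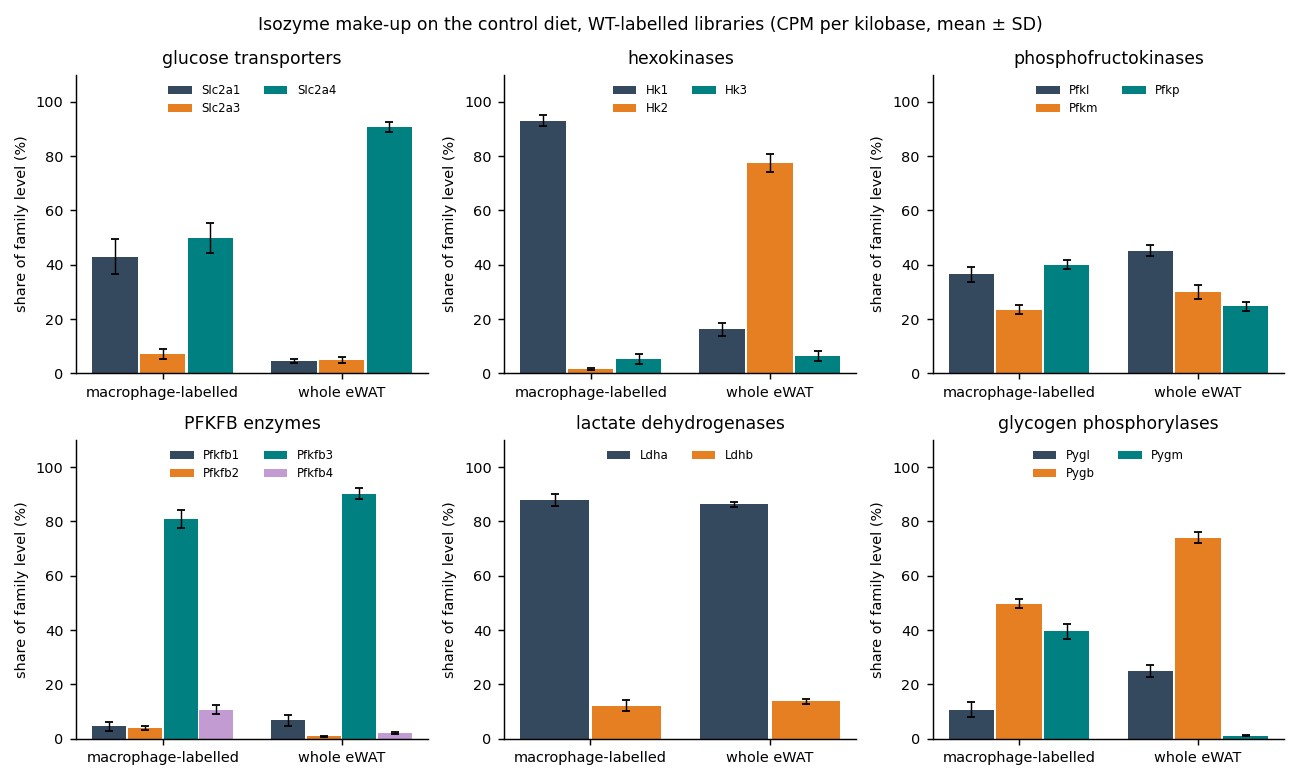
Bars give the mean share of each isozyme in the summed CPM per kilobase of its family (percent) in WT-labelled control-diet libraries, macrophage-labelled (n = 6) left of whole eWAT (n = 7), with SD as error bars. Hk1 led the hexokinases in the macrophage-labelled libraries and Hk2 in eWAT, whereas Pfkfb3 and Ldha led their families in both.

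The first comparison asked how eWAT of the same label differed between the ketogenic and the control diet. In WT-labelled eWAT, 27 of the 38 members were called, 9 higher and 18 lower on the ketogenic diet, where 53.8% of all 15569 genes tested were called (26.8% higher and 27.0% lower). In KO-labelled eWAT, 19 were called, 4 higher and 15 lower, against 39.5% of all genes (19.8% higher and 19.7% lower). Under both labels 13 members fell and 3 rose, and none was called in opposite directions, where of the 15541 genes tested under both labels 13% fell and 15.7% rose under both and 0.656% were called in opposite directions. The median log2 fold change of the members was -0.20 in WT-labelled and -0.17 in KO-labelled eWAT, beside -0.015 and -0.023 for all genes tested. With the GC offset, 18 members were called in WT-labelled eWAT (7 higher, 11 lower, 38.6% of all genes, 20% higher, 18.7% lower) and 17 in KO-labelled eWAT (4 higher, 13 lower, 38.7%, 20.1% higher, 18.6% lower). Ketogenic and control libraries did not overlap for 11 members in WT-labelled eWAT (1 higher, 10 lower), where 21.1% of all genes did not (9.51% higher, 11.5% lower). In KO-labelled eWAT this held for 7 members, all lower, beside 12.4% of all genes (4.96% lower). The summed CPM of 11 macrophage markers, all of them at a mean of at least 1 CPM in each group, was 903 to 1246 on the ketogenic and 1433 to 1873 on the control diet in WT-labelled eWAT, and 1062 to 1954 against 1407 to 2237 in KO-labelled eWAT. Its part in these results was not tested. In the eWAT diet comparisons the offset also added calls: Hk1 higher and Gbe1 lower in WT-labelled eWAT, at 0.22 (adjusted p = 0.0143) and -0.47 (adjusted p = 0.00167), and Hk2 higher and Pgls lower in KO-labelled eWAT, at 0.46 (adjusted p = 0.0481) and -0.46 (adjusted p = 0.00244).

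The transport genes moved in both directions. Slc2a4 had 99.7, 139 and 165 CPM on the ketogenic diet and 163, 197 and 217 CPM on the control diet in WT-labelled eWAT. The libraries overlapped narrowly, and the gene fell (log2 fold change -0.49, SE 0.10, adjusted p = 3.72e-04), a call that the GC offset ended at -0.19 (adjusted p = 0.138). In KO-labelled eWAT, Slc2a4 had 77.5, 112 and 145 CPM on the ketogenic and 139, 159.6 and 181 CPM on the control diet. It fell there too (log2 fold change -0.54, SE 0.11, adjusted p = 0.00105), also with the offset, at -0.44 (adjusted p = 0.00765). Trarg1 had 498, 831 and 1002 CPM on the ketogenic and 345, 507 and 633 CPM on the control diet in WT-labelled eWAT, and 541, 779 and 855 CPM against 268, 472 and 588 CPM in KO-labelled eWAT. Most ketogenic libraries lay above the control libraries, with overlap at the edge, and Trarg1 rose under both labels, by 0.75 ± 0.14 in WT-labelled and 0.74 ± 0.14 in KO-labelled eWAT (adjusted p = 3.57e-04 and 4.86e-04). Tbc1d4 encodes AS160, the Rab GTPase-activating protein that insulin signalling switches off to release GLUT4 vesicles. It had 95.5, 107 and 127 CPM on the ketogenic and 77.3, 83.5 and 102 CPM on the control diet in WT-labelled eWAT, and 86.8, 100.3 and 105 CPM against 69.8, 76.4 and 91.2 CPM in KO-labelled eWAT. The groups overlapped in part and the gene rose by 0.38 ± 0.066 and 0.34 ± 0.062 (adjusted p = 1.03e-04 and 3.70e-04). Slc2a1 had 5.72, 6.92 and 9.48 CPM on the ketogenic and 8.54, 9.48 and 12.02 CPM on the control diet in WT-labelled eWAT. It fell there (log2 fold change -0.46, SE 0.11, adjusted p = 0.00244; with the GC offset -0.21 (adjusted p = 0.151)) and was not called in KO-labelled eWAT (-0.16 ± 0.12). Slc2a3, the high-affinity transporter GLUT3, was not called under either label.

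Of the 9 upper glycolysis genes, 4 were called in WT-labelled and 2 in KO-labelled eWAT. Hk2 had 153, 222 and 246 CPM on the ketogenic diet, against 128, 153 and 173 CPM on the control diet, in WT-labelled eWAT. Most ketogenic libraries lay above all control libraries, and it rose (log2 fold change 0.47, SE 0.11, adjusted p = 0.00149). In KO-labelled eWAT, Hk2 had 104, 202 and 228 CPM on the ketogenic and 106, 139 and 212 CPM on the control diet, groups that overlapped widely, and it was not called (log2 fold change 0.34, SE 0.17, adjusted p = 0.127). Hk1 was called in KO-labelled eWAT, at 43.6, 46.04 and 52.02 CPM on the ketogenic and 36.7, 40.5 and 47.9 CPM on the control diet (log2 fold change 0.19, SE 0.057, adjusted p = 0.0128). With no filter on low counts it was not called, at 0.17 (adjusted p = 0.0508), nor were Eno1 in KO-labelled eWAT, at -0.43 (adjusted p = 0.109), and Pgk1 in WT-labelled eWAT, at 0.19 (adjusted p = 0.0697). Aldoc had 0.259, 0.514 and 1.12 CPM on the ketogenic and 0.792, 1.09 and 1.73 CPM on the control diet in WT-labelled eWAT. The ranges overlapped, and this scarce transcript fell (log2 fold change -1.03, SE 0.29, adjusted p = 0.00646). Pfkl, the liver-type phosphofructokinase, had 52.2, 63.1 and 76.8 CPM on the ketogenic and 74.8, 88.7 and 92.99 CPM on the control diet there, with overlap at the edge. It fell by this test (log2 fold change -0.40, SE 0.07, adjusted p = 1.11e-04), but not with the GC offset, at -0.065 (adjusted p = 0.5). Gpi1, which turns glucose 6-phosphate into fructose 6-phosphate, had 150.1, 178 and 188 CPM on the ketogenic and 181, 204 and 218 CPM on the control diet in KO-labelled eWAT. It fell under both labels (-0.23 ± 0.052 in KO-labelled and -0.26 ± 0.058 in WT-labelled eWAT, adjusted p = 0.00213 and 0.00113), and under neither with the GC offset, at -0.10 (adjusted p = 0.0844) and -0.027 (adjusted p = 0.737).

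Of the 4 enzymes that make or break fructose 2,6-bisphosphate, Pfkfb1 was called in WT-labelled and Pfkfb4 in KO-labelled eWAT. Pfkfb3, the most abundant of them per length, had 945, 1347 and 1565 CPM on the ketogenic and 988, 1209.9 and 1723 CPM on the control diet in WT-labelled eWAT. In KO-labelled eWAT it had 863, 1200.0 and 1478 CPM on the ketogenic and 565, 1161 and 1542 CPM on the control diet. Those ranges overlapped widely, and neither difference passed the test (0.05 ± 0.13 and 0.10 ± 0.18, adjusted p = 0.773 and 0.685). Pfkfb1 had 53.9, 65.2 and 76.4 CPM on the ketogenic and 43.6, 50.5 and 62.2 CPM on the control diet in WT-labelled eWAT. It rose with partly overlapping groups (log2 fold change 0.39, SE 0.081, adjusted p = 5.87e-04). Pfkfb4 had 10.4, 11.9 and 17.3 CPM on the ketogenic and 13.02, 17.2 and 21.1 CPM on the control diet in KO-labelled eWAT and fell (log2 fold change -0.42, SE 0.11, adjusted p = 0.0072).

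Of the lower glycolysis and lactate genes, 7 of 8 fell and 1 rose in WT-labelled eWAT, and 6 fell in KO-labelled eWAT. Pkm, the pyruvate kinase of non-hepatic tissues, had 144, 150.0 and 179 CPM on the ketogenic and 236, 274 and 325 CPM on the control diet in WT-labelled eWAT. Every ketogenic library lay below every control library (log2 fold change -0.79, SE 0.068, adjusted p = 9.47e-08). In KO-labelled eWAT, Pkm had 154, 162 and 175 CPM on the ketogenic and 201, 257 and 301 CPM on the control diet, again with no overlap (log2 fold change -0.63, SE 0.074, adjusted p = 7.65e-06). Ldhb, the subunit that favours lactate use, had 22.2, 33.6 and 36.2 CPM on the ketogenic and 43.7, 50.7 and 59.2 CPM on the control diet in KO-labelled eWAT. It did not overlap either (log2 fold change -0.65, SE 0.094, adjusted p = 4.93e-05), and Ldha, Ldhb and Pkm all stayed called with the GC offset under both labels. Ldha fell, at a log2 fold change of -0.55 ± 0.10 in WT-labelled and -0.61 ± 0.082 in KO-labelled eWAT. Slc16a3 encodes MCT4, the exporter of lactate. It had 0.735, 1.02 and 1.56 CPM on the ketogenic and 1.39, 1.94 and 2.64 CPM on the control diet in WT-labelled eWAT, with some overlap, and fell (log2 fold change -0.94, SE 0.19, adjusted p = 5.60e-04). In KO-labelled eWAT it was not called (0.24 ± 0.36, at 0.636, 1.92 and 3.76 CPM on the ketogenic and 0.781, 1.53 and 2.54 CPM on the control diet). Pgk1, which makes the first ATP of glycolysis, was the one gene of this step group to rise in WT-labelled eWAT, at 27.8, 32.6 and 37.6 CPM on the ketogenic and 23.9, 28.05 and 31.6 CPM on the control diet. The ranges overlapped (log2 fold change 0.24, SE 0.079, adjusted p = 0.0177), and the call ended with the GC offset, at 0.18 (adjusted p = 0.0651). Gapdh, Eno1 and Pgam1, the enzymes on either side of it, fell under both labels, at -0.53 ± 0.10, -0.43 ± 0.075 and -0.20 ± 0.075 in WT-labelled and at -0.44 ± 0.091, -0.41 ± 0.16 and -0.36 ± 0.059 in KO-labelled eWAT. With the GC offset none of the 3 was called in WT-labelled eWAT, and Gapdh and Pgam1 were in KO-labelled eWAT.

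The largest diet difference of any member in eWAT was in the pentose phosphate pathway. Tkt encodes transketolase, which returns pentose carbon to glycolysis. It had 193, 231 and 281 CPM on the ketogenic and 582, 771 and 959.9 CPM on the control diet in WT-labelled eWAT. Every ketogenic library lay far below every control library, at 0.323 of the control level (log2 fold change -1.63, SE 0.12, adjusted p = 2.26e-08). KO-labelled eWAT had 181, 244 and 269 CPM on the ketogenic and 379.6, 756 and 930.4 CPM on the control diet, also with no overlap (log2 fold change -1.44, SE 0.18, adjusted p = 1.30e-05). Both calls stayed with the GC offset, at -1.37 (adjusted p = 1.08e-06) and -1.31 (adjusted p = 1.58e-05). Taldo1, the transaldolase of the same branch, had 156, 184 and 201 CPM on the ketogenic and 149, 264 and 297 CPM on the control diet in KO-labelled eWAT. The ketogenic libraries lay inside the control range, which 1 low control library (replicate 3) widened, and it fell there (log2 fold change -0.43, SE 0.11, adjusted p = 0.00615) and in WT-labelled eWAT (-0.56 ± 0.062, adjusted p = 1.18e-06). The oxidative enzymes differed from each other. G6pdx, the first and rate-limiting enzyme of the pathway, had 306, 368 and 427 CPM on the ketogenic and 273, 311 and 352 CPM on the control diet in WT-labelled eWAT and rose with overlap (log2 fold change 0.28, SE 0.073, adjusted p = 0.00359). Pgls, the lactonase that follows it, had 8.46, 9.56 and 11.96 CPM on the ketogenic and 12.5, 13.8 and 25.00 CPM on the control diet there, without overlap, and fell (log2 fold change -0.61, SE 0.13, adjusted p = 6.80e-04). Pgd, the second NADPH-making enzyme, fell under both labels (-0.37 ± 0.12 in WT-labelled and -0.28 ± 0.088 in KO-labelled eWAT), but under neither with the GC offset. Rpe, the pentose phosphate epimerase, had 121, 140.3 and 168 CPM on the ketogenic and 95.9, 105 and 129 CPM on the control diet in WT-labelled eWAT. In KO-labelled eWAT it had 106, 126 and 141 CPM on the ketogenic and 86.9, 101 and 114 CPM on the control diet. It rose under both labels with overlapping ranges (0.41 ± 0.078 and 0.29 ± 0.066, adjusted p = 2.75e-04 and 0.00262), and both calls ended with the GC offset, at 0.10 (adjusted p = 0.32) and 0.14 (adjusted p = 0.0978). Rpia, the isomerase beside it, was not called.

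Glycogen genes also went both ways. Pygl, the liver-type glycogen phosphorylase that releases glucose from glycogen, had 149, 165 and 200.0 CPM on the ketogenic and 203, 288 and 335 CPM on the control diet in WT-labelled eWAT. The groups did not overlap (log2 fold change -0.70, SE 0.091, adjusted p = 6.75e-06). In KO-labelled eWAT, Pygl had 137, 157 and 193 CPM on the ketogenic and 267, 314 and 377 CPM on the control diet, at 0.499 of the control level and without overlap (log2 fold change -1.002, SE 0.079, adjusted p = 2.41e-07). Ppp1r3c encodes a glycogen-targeting subunit of protein phosphatase 1 that favours glycogen synthesis. It had 34.1, 44.5 and 56.6 CPM on the ketogenic and 21.3, 23.03 and 30.3 CPM on the control diet in WT-labelled eWAT, and was the only member with every ketogenic library above every control library (log2 fold change 0.90, SE 0.10, adjusted p = 2.12e-06). In KO-labelled eWAT it had 27.95, 32.4 and 49.6 CPM on the ketogenic and 19.7, 27.03 and 51.2 CPM on the control diet, groups that overlapped, and was not called (log2 fold change 0.20, SE 0.18, adjusted p = 0.396). The difference between the labels did not pass the test (interaction, diet change in KO-labelled minus that in WT-labelled eWAT, -0.65 ± 0.22, adjusted p = 0.0606). Gys1, the glycogen synthase of most tissues, had 85.3, 109 and 129.8 CPM on the ketogenic and 132, 152 and 167 CPM on the control diet in WT-labelled eWAT, without overlap. It fell under both labels (-0.45 ± 0.077 and -0.46 ± 0.10), and the GC offset ended the call in WT-labelled eWAT, at -0.17 (adjusted p = 0.0847). Gbe1, the branching enzyme, had 83.7, 110.1 and 127 CPM on the ketogenic and 134, 168 and 173 CPM on the control diet in KO-labelled eWAT and did not overlap (log2 fold change -0.54, SE 0.089, adjusted p = 1.61e-04). Ugp2, which makes UDP-glucose, had 172, 198 and 219 CPM on the ketogenic and 166, 176 and 187 CPM on the control diet in WT-labelled eWAT with overlapping ranges. It was called higher (log2 fold change 0.20, SE 0.052, adjusted p = 0.00322) and, with the GC offset, lower, at -0.16 (adjusted p = 0.0235), so its direction is uncertain.

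**Figure D2:**
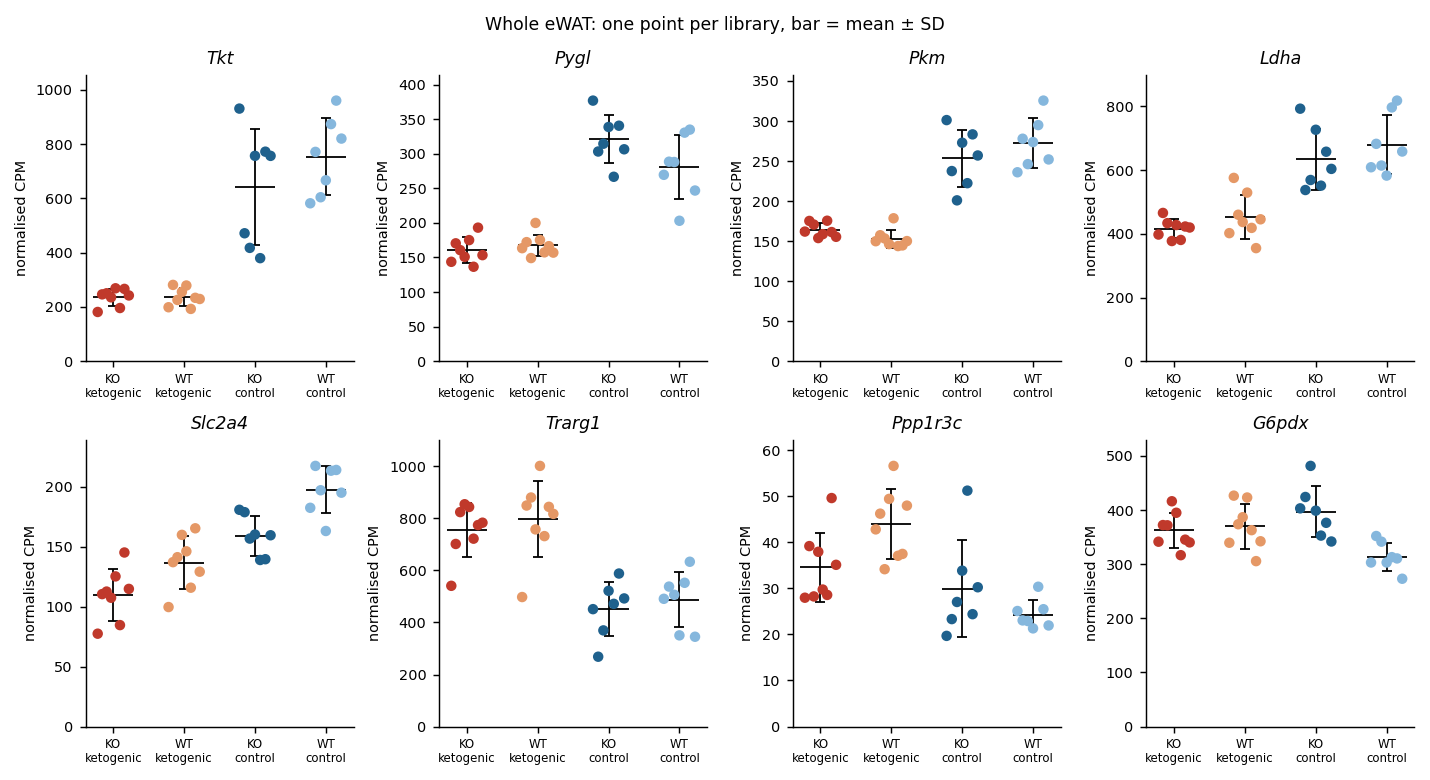
Each point is 1 eWAT library (normalised CPM), with the ketogenic groups left of the control groups and the mean ± SD in black. Tkt, Pygl, Pkm and Ldha were lower in every ketogenic library of either label than in any control library of the same label, while Trarg1 was mostly higher.

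**Figure D3:**
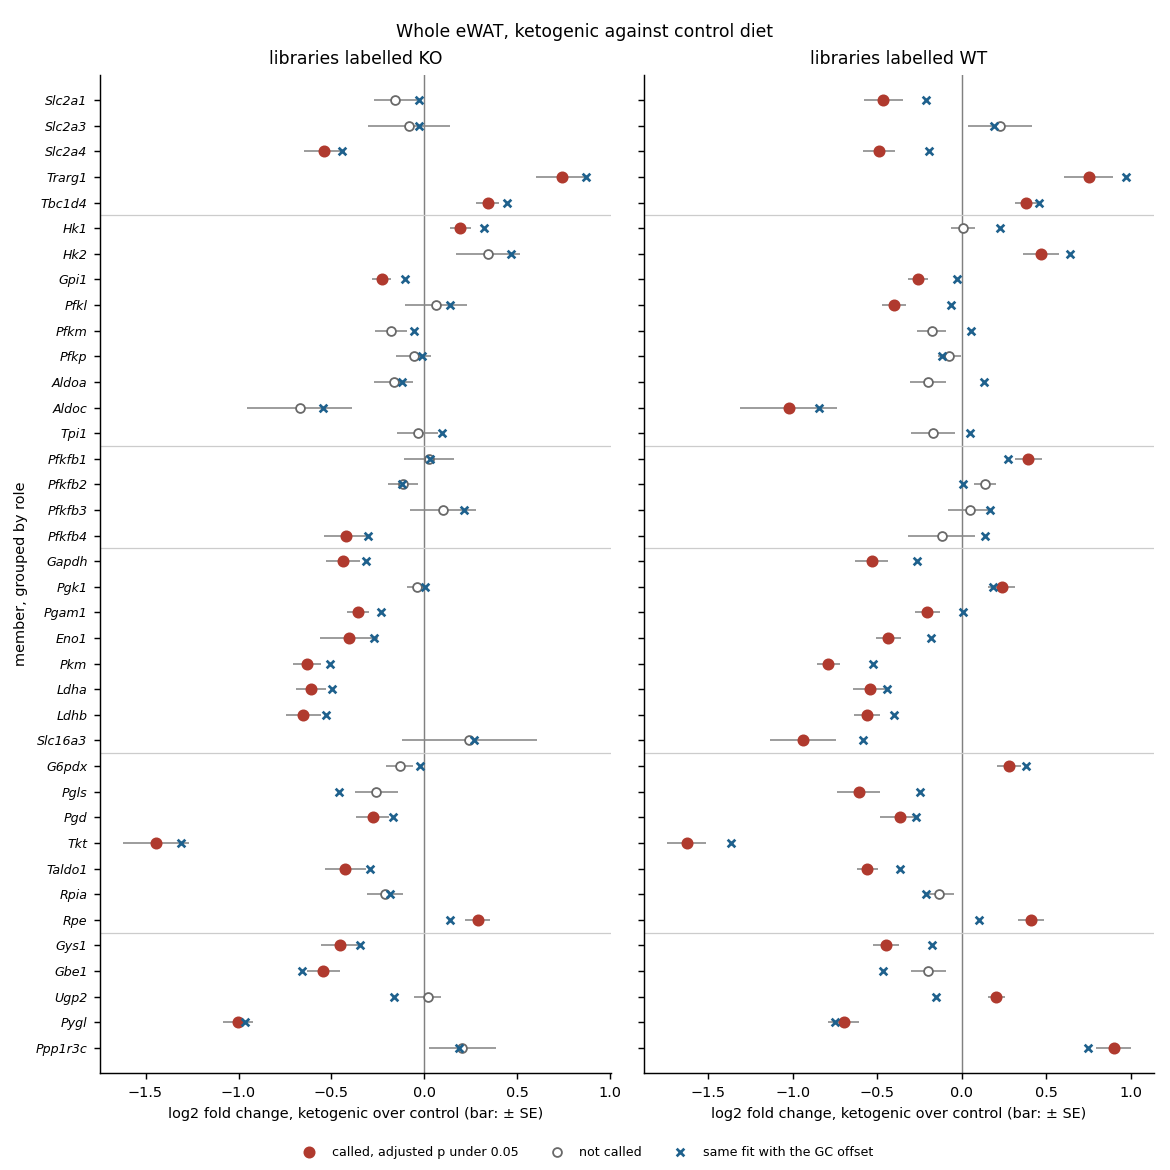
Points are the log2 fold changes of the 38 members, ketogenic over control diet, in KO-labelled (left) and WT-labelled (right) eWAT, grouped by role, with SE as bars, filled where called, and crosses give the fit with the GC offset. The lower glycolysis and lactate genes lie at or left of 0 under both labels except Pgk1 in WT-labelled and Slc16a3 in KO-labelled eWAT, and the crosses of the WT-labelled panel lie to the right of most points.

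The second comparison asked how KO-labelled eWAT differed from WT-labelled eWAT on the same diet. On the control diet 8 members were called, 3 higher and 5 lower in KO-labelled libraries, where 16% of all genes were called (4.41% higher, 11.6% lower). With the GC offset 3 were called, 2 higher and 1 lower, beside 6.41% of all genes (2.32% higher, 4.10% lower). With no filter on low counts 5 were called, beside 1816 of 33915 genes. The 6 endothelial markers summed to 995 to 1142 CPM (median 1092) in KO-labelled and 845 to 981 CPM (median 926) in WT-labelled libraries, without overlap. The 11 adipocyte markers summed to 26534 to 31221 CPM (median 29236) in KO-labelled and 28774 to 36280.5 CPM (median 32732) in WT-labelled libraries, with overlap. The part of these lists in the calls was not tested. The 2 members called both with and without the offset were Slc2a1 and G6pdx. The remaining call with the offset was an upper glycolysis gene, higher in KO-labelled libraries and not called without the offset. Slc2a1 had 4.33, 7.32 and 7.900 CPM in KO-labelled and 8.54, 9.48 and 12.02 CPM in WT-labelled libraries. It was the only member without overlap, where 4.0% of all genes had none (3.33% lower), and it fell (log2 fold change -0.54, SE 0.13, adjusted p = 0.0112; with the GC offset -0.40 (adjusted p = 0.0429)). G6pdx had 342, 399 and 482 CPM in KO-labelled and 273, 311 and 352 CPM in WT-labelled libraries. The ranges overlapped at the edge and it rose (log2 fold change 0.34, SE 0.071, adjusted p = 0.00666; with the GC offset 0.37 (adjusted p = 0.00983)).

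The other 6 calls on the control diet ended with the GC offset. Slc2a4 had 139, 159.6 and 181 CPM in KO-labelled and 163, 197 and 217 CPM in WT-labelled libraries (log2 fold change -0.31, SE 0.077, adjusted p = 0.0147). The ranges overlapped, and the offset left -0.087 (adjusted p = 0.621). Pfkl had 28.1, 50.8 and 78.2 CPM in KO-labelled and 74.8, 88.7 and 92.99 CPM in WT-labelled libraries (log2 fold change -0.70, SE 0.18, adjusted p = 0.0165), with overlap at the edge. The offset left -0.42 (adjusted p = 0.0561). Tpi1, which interconverts the triose phosphates, had 208, 264 and 352 CPM in KO-labelled and 291, 334 and 474 CPM in WT-labelled libraries (log2 fold change -0.44, SE 0.14, adjusted p = 0.039). Its call also ended without any 1 of KO replicates 3, 4, 5 and 7 or WT replicates 2, 5 and 6 (adjusted p 0.0617 to 0.0798). Gys1 had 100.1, 112 and 139.9 CPM in KO-labelled and 132, 152 and 167 CPM in WT-labelled libraries (log2 fold change -0.34, SE 0.074, adjusted p = 0.00792), and the offset left -0.16 (adjusted p = 0.256). Gbe1 had 134, 168 and 173 CPM and Ugp2 180.4, 203 and 242 CPM in KO-labelled libraries, against 112, 122 and 149 CPM and 166, 176 and 187 CPM in WT-labelled libraries. Both overlapped and rose, by 0.30 ± 0.091 and 0.25 ± 0.06 (adjusted p = 0.0343 and 0.0138), and the Gbe1 call ended without any 1 of KO replicates 1, 3, 4 and 7 or WT replicates 1 to 4 (adjusted p 0.0542 to 0.068). Hk2, Pfkfb3, Tkt and Pygl were not called on this diet. Hk2 had 106, 139 and 212 CPM in KO-labelled and 128, 153 and 173 CPM in WT-labelled libraries. Tkt had 379.6, 756 and 930.4 CPM in KO-labelled and 582, 771 and 959.9 CPM in WT-labelled libraries. Pfkfb3 had 565, 1161 and 1542 CPM in KO-labelled and 988, 1209.9 and 1723 CPM in WT-labelled libraries (-0.24 ± 0.20), and Pygl had 267, 314 and 377 CPM in KO-labelled and 203, 288 and 335 CPM in WT-labelled libraries (0.20 ± 0.10), both with overlapping ranges. The WT-labelled Hk2 range lay inside the KO-labelled one, and the Tkt ranges overlapped widely.

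On the ketogenic diet no member was called between the labels by edgeR's quasi-likelihood test, where 3.36% of all genes were (1.48% higher, 1.88% lower). At an unadjusted p under 0.05 there were 13 members (2 higher, 11 lower), beside 2872 of 15225 genes. By limma-voom 0 members were called, beside 564 genes. DESeq2's Wald test called 3, all lower (6.84% of all genes, 3.41% lower). Libraries of the 2 labels with the same replicate number deviated together in this comparison (8 of 8 pairs above a correlation of 0.1, the lowest only just so, at 0.101). Of the 8 KO-labelled libraries, 5 correlated best with the WT-labelled library of their own number. The number pairs the libraries only by this correlation, judged in these same data. With the replicate number as a block, 9 members were called, all lower in KO-labelled libraries, beside 5.33% of all genes called lower and 10.4% called in all. They were Slc2a4, Pfkl, Pfkfb1, Aldoa, Tpi1, Pgk1, Taldo1, Rpe and Gys1. The 11 adipocyte markers summed to 25518 to 32919 CPM (median 29790.5) in KO-labelled and 32253 to 38255 CPM (median 33599) in WT-labelled libraries, and the 11 macrophage markers to 1062 to 1954 CPM (median 1352) in KO-labelled and 903 to 1246 CPM (median 1040.4) in WT-labelled libraries. Both sums overlapped between the labels, and their part in the calls was not tested. Slc2a4 had 77.5, 112 and 145 CPM in KO-labelled and 99.7, 139 and 165 CPM in WT-labelled libraries. The ranges overlapped, and the fold change was -0.33 (adjusted p = 9.01e-04) with the block and -0.32 (adjusted p = 0.147) without it. Gys1 had 67.4, 87.3 and 112 CPM in KO-labelled and 85.3, 109 and 129.8 CPM in WT-labelled libraries, also overlapping, at -0.31 (adjusted p = 0.00168) with the block and -0.31 (adjusted p = 0.0932) without. Pfkfb1 had 39.6, 53.9 and 64.5 CPM in KO-labelled and 53.9, 65.2 and 76.4 CPM in WT-labelled libraries, with a fold change of -0.32 (adjusted p = 0.00252) and -0.31 (adjusted p = 0.0776). Leaving out KO replicate 7 gave 4 members called without the block, beside 4.86% of all genes. Tkt and Pygl, which fell with the diet under both labels, were not called between the labels. Tkt had 181, 244 and 269 CPM in KO-labelled and 193, 231 and 281 CPM in WT-labelled libraries (-0.0071 ± 0.09), and Pygl had 137, 157 and 193 CPM in KO-labelled and 149, 165 and 200.0 CPM in WT-labelled libraries (-0.063 ± 0.068). Both genes' ranges overlapped between the labels. Nor was Hk2 called, with 104, 202 and 228 CPM in KO-labelled and 153, 222 and 246 CPM in WT-labelled libraries (-0.094 ± 0.14, adjusted p = 0.773). Pfkfb3 had 863, 1200.0 and 1478 CPM in KO-labelled and 945, 1347 and 1565 CPM in WT-labelled libraries and was not called (-0.15 ± 0.11).

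**Figure D4:**
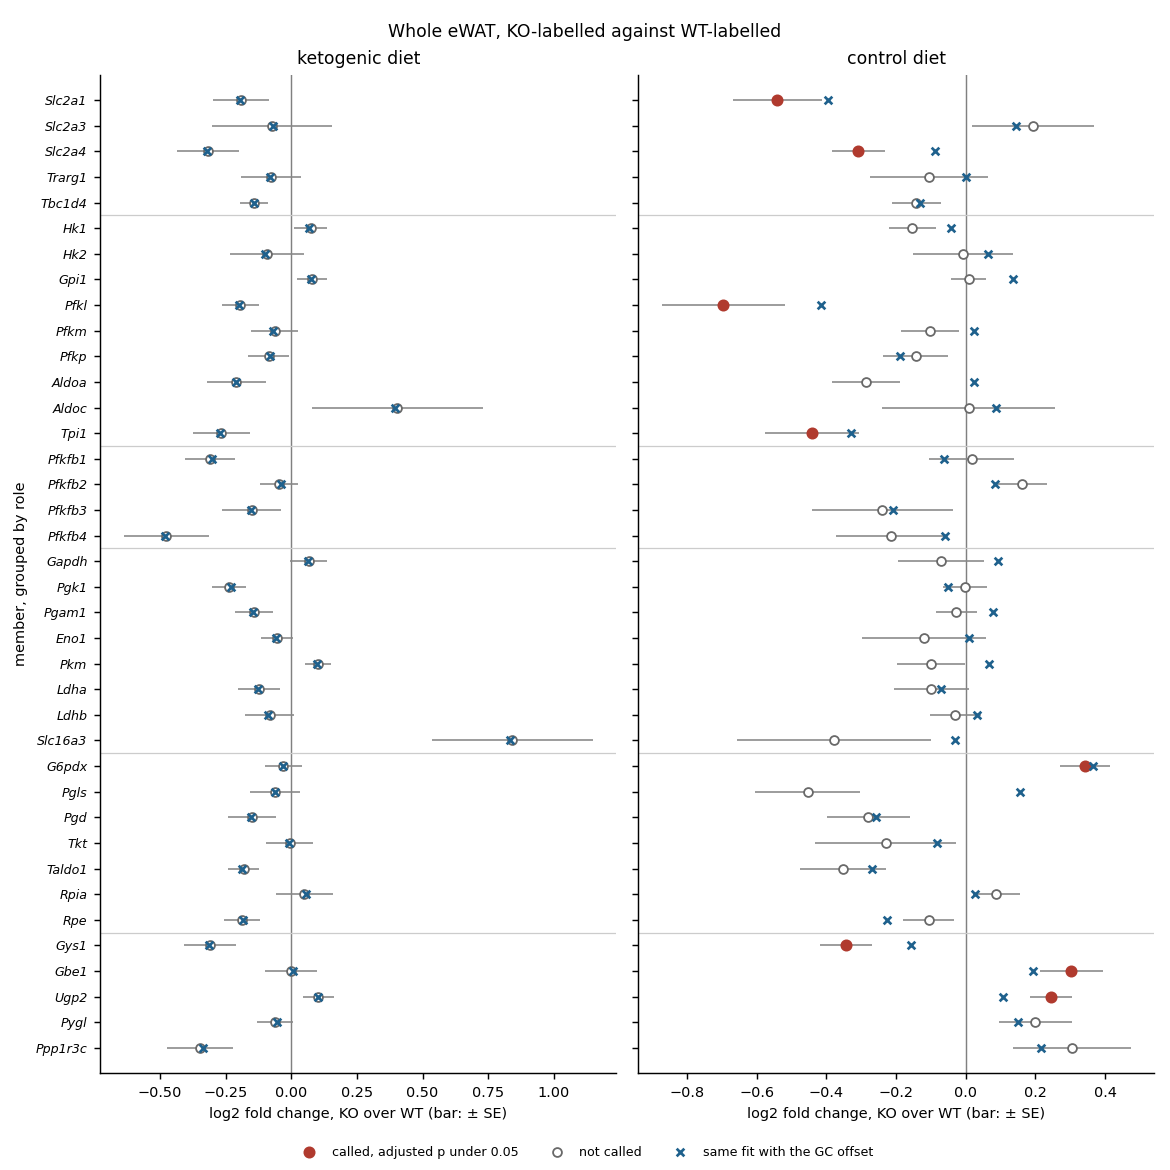
Points are the log2 fold changes of the 38 members, KO-labelled over WT-labelled eWAT, on the ketogenic (left) and control (right) diet, with SE as bars, filled where called, and crosses give the fit with the GC offset. No point is filled on the ketogenic diet and 8 are on the control diet. The crosses of these 8 stay on the same side of 0, and of them only Slc2a1 and G6pdx stay called with the offset.

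Whether the diet difference itself differed between the labels was asked by an interaction term. G6pdx was the only member called (-0.37 ± 0.11, diet change in KO-labelled minus that in WT-labelled eWAT, adjusted p = 0.0263), where 8.31% of all genes were called (6.96% higher, 1.35% lower). It had 317, 359 and 416 CPM on the ketogenic and 342, 399 and 482 CPM on the control diet in KO-labelled eWAT, against 306, 368 and 427 CPM on the ketogenic and 273, 311 and 352 CPM on the control diet in WT-labelled eWAT. The WT-labelled control libraries were the lowest group and overlapped the others in part. The G6pdx call stayed with the GC offset, at -0.40 (adjusted p = 0.0482), where 1.24% of all genes were called. With no filter on low counts it ended, and no member was called, beside 1119 of 34955 genes.

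The third comparison asked how the macrophage-labelled libraries differed between the diets. With both genotype labels in 1 fit, 15 members were called, 4 higher and 11 lower on the ketogenic diet, where 30.0% of all genes were called (14.0% higher, 15.9% lower). Without the 4 ketogenic libraries in which Gm11868 went against the label, 4 members were called (Pfkfb3 and Trarg1 higher, Ppp1r3c and Tpi1 lower), beside 5.18% of all genes (2.78% higher, 2.40% lower), and all 15 kept their direction. Within the labels, 9 members were called in KO-labelled libraries (2 higher, 7 lower, 20.3% of all genes, 10.7% higher, 9.57% lower) and 4 in WT-labelled libraries (2 higher, 2 lower, 3.52%, 1.74% higher, 1.79% lower). Leaving out the 4 libraries leaves 1 ketogenic library per label, KO replicate 1 and WT replicate 3, each assumed to vary like the other groups. Without the 4 libraries these counts were 2 in KO-labelled libraries (1 higher, 1 lower, 1.0% of all genes, 0.706% higher, 0.296% lower) and 2 in WT-labelled libraries (1 higher, 1 lower, 0.399%, 0.189% higher, 0.210% lower). All libraries that stayed were also in the full fit that picked the 15 members, so the kept direction of the 15 is not a separate check. Ketogenic and control libraries did not overlap for 7 members, 2 higher and 5 lower, where 7.89% of all genes did not (4.35% higher, 3.53% lower). WT-labelled control replicate 2 stood apart for 8 members, and without it 9 members were called in WT-labelled libraries (9.61% of all genes), whereas without WT-labelled ketogenic replicate 1 there were 2 (0.0932% of all genes). Control replicate 2 had the fewest gene counts of the macrophage-labelled set (36.94 M). It also had the largest share of reads not assigned to a gene of any library (32.9%), and the part of this in its values was not tested. The summed CPM of the 11 macrophage markers, all at a mean of at least 1 CPM in each group, was 395 to 473 in KO-labelled and 507 to 611 in WT-labelled ketogenic libraries, against 776 to 1071 in KO-labelled and 555 to 1732 in WT-labelled control libraries. The 6 endothelial markers summed to 6527 to 7447 CPM in KO-labelled and 6489.7 to 7076 CPM in WT-labelled ketogenic libraries, against 6212 to 7064 CPM in KO-labelled and 4786 to 6839 CPM in WT-labelled control libraries. The 11 adipocyte markers, most of whose sum was Fabp4, made 8281 to 11272 CPM in KO-labelled and 8963 to 9986 CPM in WT-labelled ketogenic libraries, against 7869 to 9679.9 CPM in KO-labelled and 7906 to 12290.5 CPM in WT-labelled control libraries. The 6 erythroid markers summed to 1059 to 1486 CPM in KO-labelled and 887 to 1387 CPM in WT-labelled ketogenic libraries, against 1602 to 2176 CPM in KO-labelled and 1841 to 3790.0 CPM in WT-labelled control libraries, so every ketogenic library was lower than every control library. The part of these lists in the results was not tested.

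Pfkfb3 rose most of all members. It had 242, 266 and 234 CPM in the 3 KO-labelled and 339.7, 252 and 227 CPM in the 3 WT-labelled ketogenic libraries, in order of replicate. Control libraries had 86.6, 113 and 134 CPM under the KO and 68.6, 112 and 130.1 CPM under the WT label. Every ketogenic library lay above every control library, at 2.41 times the control level (log2 fold change 1.27, SE 0.13, adjusted p = 1.62e-06; without the 4 libraries 1.12 ± 0.18 (adjusted p = 0.00235)). In WT-labelled libraries alone the call ended without ketogenic replicate 1 (adjusted p = 0.0653).

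Ppp1r3c fell most of all members. It had 3.93, 4.602 and 3.57 CPM in KO-labelled and 4.74, 6.02 and 5.14 CPM in WT-labelled ketogenic libraries. Control libraries had 11.1, 12.01 and 15.9 CPM under the KO and 11.3, 12.9 and 14.4 CPM under the WT label. The diets did not overlap, and the ketogenic level was 0.364 of the control level (log2 fold change -1.46, SE 0.10, adjusted p = 4.43e-08; without the 4 libraries -1.49 ± 0.16 (adjusted p = 1.34e-04)). In WT-labelled whole eWAT the same gene had risen by 0.90 ± 0.10, and the difference between the 2 kinds of library was not tested.

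Among the transport genes, Trarg1 had 71.8, 54.3 and 68.8 CPM in KO-labelled and 66.7, 56.9 and 64.4 CPM in WT-labelled ketogenic libraries. Control libraries had 33.7, 36.6 and 38.7 CPM under the KO and 29.4, 33.7 and 36.6 CPM under the WT label. The diets did not overlap, and it rose (log2 fold change 0.87, SE 0.061, adjusted p = 4.21e-08; without the 4 libraries 0.96 ± 0.08 (adjusted p = 2.40e-05)). Slc2a4 had 26.8, 30.5 and 29.6 CPM in KO-labelled and 26.5, 27.8 and 27.5 CPM in WT-labelled ketogenic libraries, against 35.3, 40.8 and 53.8 CPM in KO-labelled and 32.7, 42.1 and 57.2 CPM in WT-labelled control libraries. Every ketogenic library was lower than every control library (log2 fold change -0.61, SE 0.11, adjusted p = 4.60e-04), and without the 4 libraries it was no longer called, at -0.66 ± 0.19 (adjusted p = 0.0574). Slc2a1 had 31.5, 25.7 and 29.4 CPM in KO-labelled and 29.9, 29.7 and 26.6 CPM in WT-labelled ketogenic libraries, against 30.3, 34.99 and 43.6 CPM in KO-labelled and 32.8, 36.3 and 44.4 CPM in WT-labelled control libraries. The ranges overlapped and it fell (log2 fold change -0.33, SE 0.076, adjusted p = 0.00319), which was not called without the 4 libraries, at -0.32 ± 0.13 (adjusted p = 0.183).

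Of the 9 upper glycolysis genes, Tpi1 and Pfkm fell and Pfkp and Hk1 rose. Tpi1 had 92.2, 98.9 and 101 CPM in KO-labelled and 92.4, 104 and 107 CPM in WT-labelled ketogenic libraries, against 124, 128 and 134 CPM in KO-labelled and 129.9, 139 and 192 CPM in WT-labelled control libraries. The diets did not overlap (log2 fold change -0.46, SE 0.07, adjusted p = 9.40e-05; without the 4 libraries -0.46 ± 0.12 (adjusted p = 0.0359)). Pfkm, the muscle-type phosphofructokinase, had 23.6, 23.8 and 24.9 CPM in KO-labelled and 24.4, 23.9 and 25.8 CPM in WT-labelled ketogenic libraries, against 27.7, 27.95 and 30.8 CPM in KO-labelled and 27.9, 28.9 and 32.5 CPM in WT-labelled control libraries, and fell without overlap (log2 fold change -0.26, SE 0.046, adjusted p = 5.00e-04). Pfkp, the platelet-type form, rose by 0.16 ± 0.044, at 221, 240.4 and 222 CPM in KO-labelled and 222, 245 and 251 CPM in WT-labelled ketogenic libraries, against 205, 213 and 224 CPM in KO-labelled and 189.7, 200.4 and 214 CPM in WT-labelled control libraries. Hk1 rose by 0.16 ± 0.049, at 242, 269 and 238 CPM in KO-labelled and 253, 252 and 251 CPM in WT-labelled ketogenic libraries, against 219, 235 and 244 CPM in KO-labelled and 186, 222 and 234 CPM in WT-labelled control libraries. Both overlapped between diets, Hk1 was not called with no filter on low counts, at 0.16 (adjusted p = 0.0618), and without the 4 libraries neither they nor Pfkm were called. Hk2 stayed scarce, at 2.31, 1.92 and 2.91 CPM in KO-labelled and 2.64, 2.47 and 3.69 CPM in WT-labelled ketogenic libraries, against 0.866, 1.93 and 2.68 CPM in KO-labelled and 1.68, 2.52 and 3.87 CPM in WT-labelled control libraries, and was not called (0.26 ± 0.20, adjusted p = 0.354).

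Of the 8 lower glycolysis and lactate genes, Gapdh, Ldhb and Ldha fell. Gapdh had 210.1, 189 and 226 CPM in KO-labelled and 197, 212 and 219 CPM in WT-labelled ketogenic libraries, against 237, 250.4 and 254 CPM in KO-labelled and 239, 252 and 412 CPM in WT-labelled control libraries, without overlap (log2 fold change -0.33, SE 0.093, adjusted p = 0.0119). Ldhb had 28.6, 25.3 and 27.8 CPM in KO-labelled and 27.9, 23.4 and 28.6 CPM in WT-labelled ketogenic libraries, against 28.4, 31.9 and 35.5 CPM in KO-labelled and 29.4, 37.3 and 41.3 CPM in WT-labelled control libraries, with overlap at the edge (log2 fold change -0.33, SE 0.079, adjusted p = 0.0048). Ldha fell, at a log2 fold change of -0.14 ± 0.048, a call that ended in 9 of the 18 fits without 1 library (adjusted p 0.0534 to 0.135) with no filter on low counts, at -0.13 (adjusted p = 0.114), and with the GC offset, at -0.11 (adjusted p = 0.0732). None of the 3 was called without the 4 libraries. Slc16a3 had 7.12, 6.64 and 7.57 CPM in KO-labelled and 7.997, 7.48 and 6.67 CPM in WT-labelled ketogenic libraries, against 6.63, 7.36 and 7.92 CPM in KO-labelled and 6.01, 7.23 and 11.1 CPM in WT-labelled control libraries, ranges that overlapped wholly, and was not called (-0.056 ± 0.10, adjusted p = 0.711). Tkt, the member with the largest fall in eWAT, had 88.4, 88.3 and 94.3 CPM in KO-labelled and 89.7, 94.5 and 92.96 CPM in WT-labelled ketogenic libraries, against 80.4, 87.6 and 89.99 CPM in KO-labelled and 81.1, 86.9 and 92.8 CPM in WT-labelled control libraries, and was not called (0.074 ± 0.04, adjusted p = 0.168), though it was called higher with the GC offset, at 0.11 (adjusted p = 0.0424).

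In the pentose phosphate pathway Pgls and Taldo1 fell. Pgls had 27.3, 27.4 and 30.6 CPM in KO-labelled and 24.4, 31.3 and 30.5 CPM in WT-labelled ketogenic libraries, against 30.1, 31.9 and 34.7 CPM in KO-labelled and 30.5, 34.96 and 51.4 CPM in WT-labelled control libraries (log2 fold change -0.27, SE 0.091, adjusted p = 0.0323). Taldo1 had 101, 104 and 116 CPM in KO-labelled and 100.4, 108 and 115 CPM in WT-labelled ketogenic libraries, against 117, 119 and 126 CPM in KO-labelled and 115, 123 and 164 CPM in WT-labelled control libraries (log2 fold change -0.21, SE 0.065, adjusted p = 0.0227). Both overlapped between the diets. The Taldo1 call ended without any 1 of ketogenic KO replicates 1 and 2 and WT replicates 1 and 2 (adjusted p 0.0536 to 0.0842), and the Pgls call without any 1 of those 4, ketogenic WT replicate 3 or control KO replicate 4 (0.0533 to 0.118). Among glycogen genes, Pygl had 22.8, 17.3 and 23.2 CPM in KO-labelled and 25.1, 21.6 and 22.8 CPM in WT-labelled ketogenic libraries, against 22.7, 29.1 and 34.9 CPM in KO-labelled and 19.96, 32.3 and 49.96 CPM in WT-labelled control libraries. The ranges overlapped and it fell (log2 fold change -0.51, SE 0.15, adjusted p = 0.0173), and it was not called without the 4 libraries, at -0.46 ± 0.25 (adjusted p = 0.338).

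**Figure D5:**
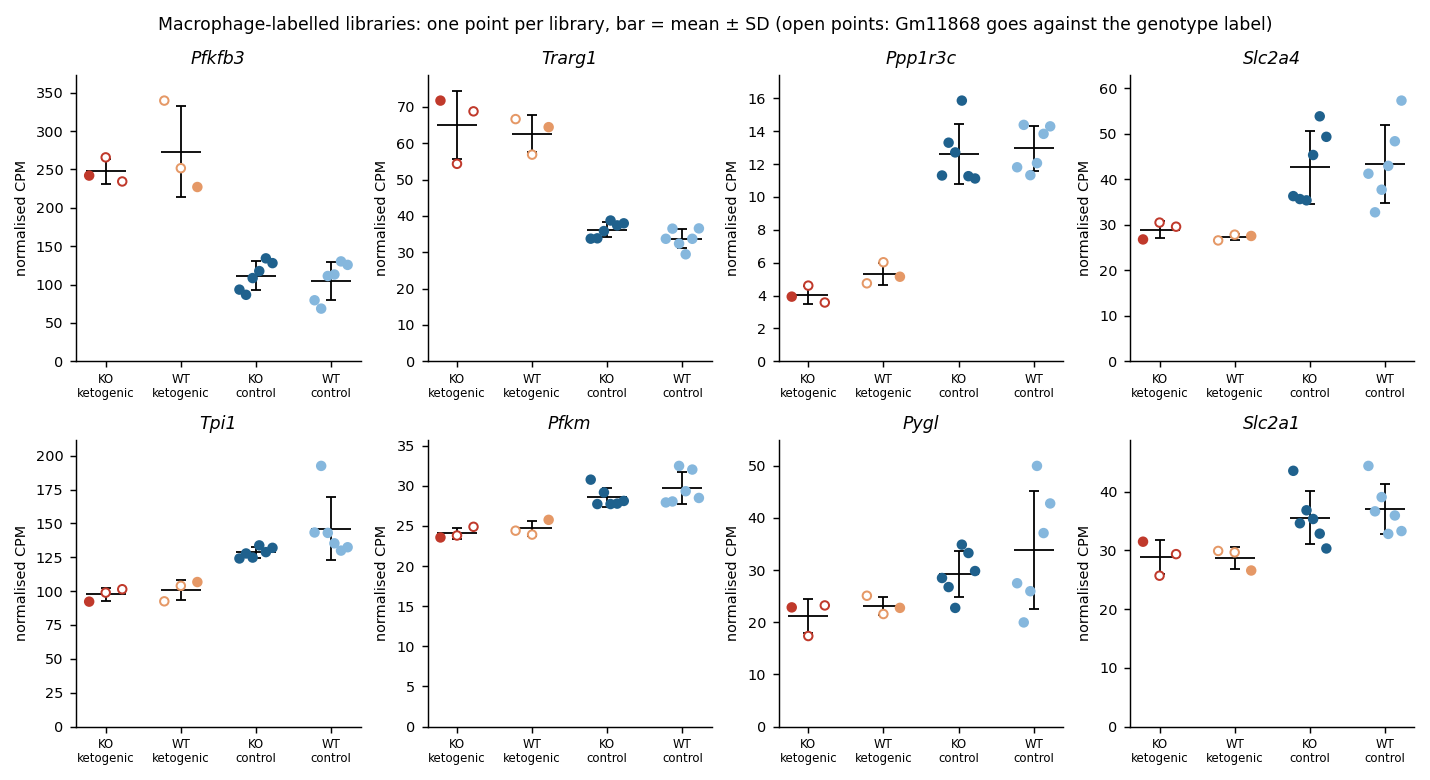
Each point is 1 macrophage-labelled library (normalised CPM), ketogenic groups (n = 3 each) left of control groups (n = 6 each), with the mean ± SD in black and open points for libraries in which Gm11868 went against the genotype label. Pfkfb3 and Trarg1 lie higher and Ppp1r3c, Slc2a4, Tpi1 and Pfkm lower in every ketogenic library, open or filled, than in any control library.

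Between the genotype labels no member was called in the macrophage-labelled libraries by edgeR's quasi-likelihood test, on the control diet (0.0820% of all genes called), on the ketogenic diet (0.00%) or in the interaction (0.00%). At an unadjusted p under 0.05 there were 1, 3 and 1 members, beside 1701 of 17067, 520 of 17067 and 726 of 18566 genes. DESeq2's Wald test called 0 members in each, beside 115, 14 and 17 genes. By limma-voom 0 members were called in each too, beside 27, 0 and 7 genes. Gm11868 went against the label in 4 of the 6 ketogenic libraries. The ketogenic and interaction results therefore compare labels that may not follow the genotype, and say little about the genotypes themselves. On the control diet Pfkfb3 had 86.6, 113 and 134 CPM in KO-labelled and 68.6, 112 and 130.1 CPM in WT-labelled libraries, and Slc2a1 had 30.3, 34.99 and 43.6 CPM in KO-labelled and 32.8, 36.3 and 44.4 CPM in WT-labelled libraries, with wide overlap for both.

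Of 65 other genes of the same pathways, 13 rose and 21 fell with the ketogenic diet in WT-labelled eWAT (57 tested), where of all genes 26.8% rose and 27.0% fell. In KO-labelled eWAT 10 rose and 20 fell (58 tested), beside 19.8% higher and 19.7% lower of all genes. Pgm2l1, a glucose 1,6-bisphosphate synthase, rose under both labels, at 0.84 ± 0.054, adjusted p = 1.17e-08 in WT-labelled and 0.69 ± 0.086, adjusted p = 1.24e-05 in KO-labelled eWAT. Stbd1, a glycogen-binding protein, rose at 0.64 ± 0.17, adjusted p = 0.00383 in WT-labelled and 1.09 ± 0.17, adjusted p = 1.12e-04 in KO-labelled eWAT. Irs2, an insulin receptor substrate, rose at 0.64 ± 0.11, adjusted p = 2.28e-04 in KO-labelled eWAT. Eno2, the neuronal enolase, fell, at a log2 fold change of -1.05 ± 0.19, adjusted p = 2.15e-04 in WT-labelled and -0.63 ± 0.15, adjusted p = 0.00351 in KO-labelled eWAT. In WT-labelled eWAT the phosphorylase kinase subunit Phkg1 fell, at a log2 fold change of -1.03 ± 0.14, adjusted p = 1.47e-05 and the galactose enzyme Galt at -0.97 ± 0.087, adjusted p = 1.49e-07. Pygb, the brain-type phosphorylase, fell, at a log2 fold change of -1.004 ± 0.10, adjusted p = 1.43e-06 and Gys2, the liver-type glycogen synthase, at -0.78 ± 0.25, adjusted p = 0.02 in KO-labelled eWAT.

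Between the labels on the control diet 2 of these genes rose and 8 fell in KO-labelled eWAT (58 tested), close to the share of all genes called (16%, 4.41% higher and 11.6% lower). Galk1, the galactokinase, fell, at a log2 fold change of -0.94 ± 0.18, adjusted p = 0.0045, and its fold change was -0.33 (adjusted p = 0.0998) with the GC offset. The transporter gene Slc2a8 fell, at a log2 fold change of -0.68 ± 0.15, adjusted p = 0.00795, and its fold change was -0.03 (adjusted p = 0.818) with the offset. Cbl, an adaptor of receptor signalling, rose at 0.22 ± 0.056, adjusted p = 0.0152 and Phka1, a phosphorylase kinase subunit, at 0.21 ± 0.058, adjusted p = 0.0249, and neither was called with the offset, at 0.17 (adjusted p = 0.0509) and 0.14 (adjusted p = 0.112). On the ketogenic diet 2 rose and 4 fell in KO-labelled eWAT (57 tested), beside 1.48% higher and 1.88% lower of all genes. Stbd1 rose at 0.49 ± 0.13, adjusted p = 0.0489 and Cbl at 0.19 ± 0.05, adjusted p = 0.0429, whereas Slc2a13 fell, at a log2 fold change of -0.64 ± 0.15, adjusted p = 0.029 and Prps1, which makes phosphoribosyl pyrophosphate, at -0.42 ± 0.083, adjusted p = 0.0145. In the interaction 5 of 58 were called, all higher, beside 6.96% of all genes, among them Galk1 (0.95 ± 0.25, adjusted p = 0.0151), Irs2 (0.64 ± 0.16, adjusted p = 0.0131) and Slc2a8 (0.54 ± 0.16, adjusted p = 0.0329), and none of these 3 was called with the GC offset.

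In the macrophage-labelled libraries 11 of the 65 rose and 14 fell with the ketogenic diet (60 tested, both labels in 1 fit), beside 14.0% higher and 15.9% lower of all genes. Slc2a13 rose at 0.78 ± 0.19, adjusted p = 0.00442, Slc2a9 at 0.48 ± 0.12, adjusted p = 0.00495 and Pgam2, the muscle phosphoglycerate mutase, at 0.45 ± 0.11, adjusted p = 0.00525. Cbl fell, at a log2 fold change of -0.63 ± 0.08, adjusted p = 1.47e-05, Slc2a6, a transporter-family gene, at -0.63 ± 0.17, adjusted p = 0.00896 and Bpgm, which makes 2,3-bisphosphoglycerate, at -0.58 ± 0.13, adjusted p = 0.00254. Bpgm is known for its high level in red cells, and the summed erythroid markers were lower in the same libraries. Any link between the 2 was not tested. None of the 65 was called between the genotype labels there.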

How the data were processed

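Whole-number read counts per gene were deposited by the authors for 48 libraries. Per the submitters' processing notes, reads were trimmed with Trim Galore 0.6.0 and aligned to mm10 with STAR 2.7.8a, and no annotation release is named in the sources used. Per the labels' protocols, eWAT libraries used a stranded kit and 500 ng of RNA and macrophage-labelled libraries SMART-Seq v4 and 1 to 5 ng. The strand-matched column was used for eWAT and the unstranded column for the macrophage-labelled set, where overlapping and antisense reads cannot be told apart. Totals were 17.42 to 59.85 M gene counts, and 19.4 to 32.9% of reads were not assigned to a gene. Those reads were unmapped, mapped to more than 1 place, in no gene by the column used or ambiguous between genes. No 2 libraries of a group agreed within sampling noise.

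Groups came from the labels. Genes were filtered with filterByExpr, scaled by TMM and tested with edgeR 4.0.16 (quasi-likelihood, robust; limma 3.58.1, R 4.3.3) with Benjamini-Hochberg adjustment over all genes, after tests on simulated data. Alternatives were DESeq2 1.42.0 size factors and Wald test, limma-voom, no filter, a GC offset (smoothing span 0.3), the replicate block, all groups in one fit, the unstranded eWAT column and leaving out libraries. Same-numbered libraries deviated together, with every pair above 0.1, between the labels on the ketogenic diet in eWAT (8 of 8, lowest 0.101) and in the macrophage-labelled set (3 of 3, lowest 0.102). The block's fold changes had been seen before this check. Values by library are given for the called members with the 2 largest fold changes per direction and role, and always for Slc2a4, Hk2, Pfkfb3, Tkt and Pygl in eWAT and Slc2a1, Hk2, Pfkfb3 and Slc16a3 in the macrophage-labelled set. A few further members (such as Ldha, Tkt in the macrophage-labelled set) were added after their values were seen. Values of some other listed genes are not reported here. The members and lists were chosen with earlier results of these data known.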

Additional observations from a re-analysis of the deposited data

Results flagged for a closer look

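In each group of 6 to 8 libraries the highest and lowest value of every member were compared with their nearest neighbour by Dixon's criterion. Of 228 groups 18 passed it, and chance alone passes about 1 in 20 groups. Macrophage-labelled WT control replicate 2 accounted for 8 of them. It was the highest of its group for Gpi1 (213.6 CPM), Aldoa (648.6 CPM), Tpi1 (192.4 CPM), Gapdh (411.9 CPM), Pgls (51.37 CPM) and Taldo1 (164.5 CPM), and the lowest for Slc2a3 (6.11 CPM) and Gbe1 (14.74 CPM). In the macrophage-labelled KO control group, replicate 5 was lowest for Pfkfb1 (2.491 CPM) and replicate 4 highest for Gbe1 (27.53 CPM).

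In eWAT, KO control replicate 3 was lowest for Slc2a1 (4.33 CPM) and Pgls (7.5 CPM). WT control replicate 1 was highest for Pgls (25.0 CPM) and Rpia (20.21 CPM), and WT control replicate 3 was lowest for Pfkfb2 (10.65 CPM). On the ketogenic diet, KO replicate 5 was highest for Pgls (12.88 CPM), WT replicate 6 for Hk1 (54.07 CPM) and WT replicate 5 for Pkm (178.5 CPM). The diet change of G6pdx differed between the labels in eWAT by -0.3697 on the log2 scale (KO minus WT, adjusted p = 0.0263 by edgeR's quasi-likelihood test of the interaction).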

How the results depend on the processing

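The brackets in this section give the number called among all genes tested. The count of members called between the labels in control-diet eWAT was 8 (2677 of 16746). It was 5 with no filter on low counts (1816 of 33915) and 3 with the GC offset (1074 of 16746). On the ketogenic diet it was 0 (512 of 15225), against 3 by DESeq2's Wald test (1041 of 15225) and 9 with the replicate block (1586 of 15225). All 4 groups in one fit gave 1 (574 of 17140), and leaving out a library 0 to 4 (205 to 788 genes). The interaction count of 1 in eWAT (1425 of 17140) became 2 with DESeq2 size factors (1437 of 17140). It became 4 by DESeq2's Wald test (1961 of 17140), 2 by limma-voom (1818 of 17140) and 0 with no filter (1119 of 34955). In macrophage-labelled WT libraries the diet count of 4 (623 of 17687) became 9 by DESeq2's Wald test (1779 of 17687). It became 11 by limma-voom (2438 of 17687) and 7 with the replicate block (2138 of 17687). All 4 groups in one fit gave 11 (2937 of 18566), and leaving out a library 2 to 9 (17 to 1685 genes). Leaving out the 4 doubtful ketogenic libraries, in which Gm11868 went against the label, gave 4 members in place of 15 with both labels in 1 fit. Over all genes this was 962 in place of 5562 of 18566. The 4 libraries were chosen after seeing the data, and within either label 1 ketogenic library remained. Leaving out 1 library gave 6 to 10 members in control-diet eWAT between labels (1925 to 3287 genes). It gave 12 to 15 for the macrophage-labelled diet comparison (3986 to 6555 genes) and 6 to 9 for its KO-labelled libraries (2452 to 3361 genes). The replicate block gave 6 members in control-diet eWAT (2235 of 16746) and 6 in the KO-labelled macrophage set (1569 of 17693). In the eWAT diet comparisons it gave 28 in WT-labelled (8023 of 15569) and 20 in KO-labelled libraries (5807 of 16483). The replicate numbers did not pair the libraries by correlation in these comparisons. Direction changed for Pgam1 (0.0048) and Ugp2 (-0.16) with the GC offset in WT-labelled eWAT diet, and for uncalled genes near 0. Those were Hk2 in control-diet eWAT between labels (limma-voom 0.037, GC offset 0.065, libraries left out -0.11 to 0.061) and Tkt on the ketogenic diet (limma-voom 0.042, libraries left out -0.045 to 0.041). In the macrophage-labelled diet comparisons they were Slc16a3 in WT-labelled libraries (limma-voom 0.023, libraries left out -0.14 to 0.0603), KO-labelled libraries (-0.085 to 0.00904) and both (-0.086 to 0.013), and Hk2 in WT-labelled libraries (-0.029 to 0.32). The cause of these changes was not tested beyond the construction of each fit. Members at a few CPM, such as Aldoc and Slc16a3 in eWAT, rest on few reads.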
